A study of Mus musculus with 6 samples.

Results

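Nuclear-encoded subunits of the oxidative phosphorylation complexes were followed at the level of transcription start sites in nuclear RNA from a mouse embryonic stem cell line (mESCs) and from a line of oligodendrocyte progenitors (mOPCs). The genes were chosen by name among the protein-coding genes of the mouse annotation: Nduf followed by a, b, c, s or v and a digit, Sdha to Sdhd, Uqcr, Cox4 to Cox8 and Atp5, leaving out the Ndufaf assembly factors. This gave 85 of 21938 protein-coding genes, and of 32093 genes when long non-coding RNAs are added. Cap analysis of gene expression (CAGE) reads the 5' ends of capped RNAs as short tags, and each tag was counted at its first base on the gene's strand within 500 bp of an annotated 5' end. The mESCs were R08, a male line grown without feeder cells in serum medium with leukemia inhibitory factor (3 libraries). The mOPCs were Oli-neu, a cell line derived from oligodendrocyte progenitors and kept in proliferation medium with N2, T3, L-thyroxine, bFGF and PDGF-BB (3 libraries). Each cell type is therefore represented by 1 line, with no other treatment, and the study calls batches of cells with different passage numbers biological replicates.

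The libraries held 16657021 to 40928704 tags, and levels are given in CPM, the tag count scaled by the total tags of the library. All mESC libraries carried 1 code in the deposited files and all mOPC libraries another. What the code stands for is not stated, and any difference that it marks cannot be told apart from cell type. A single position took 5.38 to 5.92% of the tags of each mOPC library, against 0.508 to 0.667% for the top position of each mESC library. The 6 mESC markers summed to 3193 to 3533 CPM in the mESC libraries and to 0.274 to 0.451 CPM in the mOPC libraries, where 5 of them had no tag. The 6 progenitor markers summed to 7.23 to 8.16 CPM in mESCs and to 1399 to 1494 CPM in mOPCs, led there by Cspg4, Olig2 and Sox10. Pdgfra differed little, with means of 5.51 CPM in mESCs and 8.33 CPM in mOPCs. Nkx2-2 had a mean of 0.103 CPM in mESCs and no tag in mOPCs. The 4 markers of differentiated oligodendrocytes also gave 247 to 283 CPM in mOPCs. The summed neuron, astrocyte, fibroblast, and endoderm and mesoderm markers stayed at or below 23.3 CPM in every library.

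Oxidative phosphorylation couples the oxidation of NADH and succinate in the inner mitochondrial membrane to ATP synthesis. Complex I (NADH dehydrogenase) and complex II (succinate dehydrogenase) pass electrons to ubiquinone, complex III (the cytochrome bc1 complex) passes them to cytochrome c, complex IV (cytochrome c oxidase) reduces oxygen, and complex V (ATP synthase) uses the resulting proton gradient. Complexes I, III, IV and V also hold subunits made from mitochondrial DNA, whereas every subunit of complex II comes from the nucleus. Several complex IV subunits and the c ring of ATP synthase are encoded by paralogues that differ between tissues. Among the 85 genes, Ndufa4 and its paralogue Ndufa4l2 were placed with complex IV. Cox7a2l, a factor for joining respiratory complexes, and Atp5s, an ATP synthase factor, were kept apart from the subunits of each complex. Both are still counted wherever the genes of the list are pooled, and the pooled genes are called subunit genes for short.

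Start sites of some genes, chosen by level or by promoter width, are shown first, since level, width and the change between cell types are all read from such sites. The stretches below run from 50 bases before to 9 bases after the dominant start, the deposited position with most tags over the 6 libraries, on the gene's strand in build GRCm38.p6 with letters from RefSeq. Capitals mark the dominant deposited position and the base after it. Atp5b (chr10:128083255-128083314, plus strand), Cox6a1 (chr5:115348948-115349007, minus) and Ndufa12 (chr10:94198986-94199045, plus) had the highest mean levels over the 6 libraries in complexes V, IV and I, although in mOPCs Atp5a1 was above Atp5b in every library. Cox6a1, Ndufa12 and Cox7a2l (chr17:83514322-83514381, minus) had the narrowest promoters, and Atp5c1 (chr2:10080421-10080480, minus), Atp5d (chr10:80142295-80142354, plus) and Cox5a (chr9:57521189-57521248, plus) the widest.
Atp5b: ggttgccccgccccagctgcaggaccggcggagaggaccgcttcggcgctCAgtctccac
Cox6a1: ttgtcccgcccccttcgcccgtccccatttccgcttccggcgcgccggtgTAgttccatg
Ndufa12: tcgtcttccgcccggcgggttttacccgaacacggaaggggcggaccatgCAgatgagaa
Cox7a2l: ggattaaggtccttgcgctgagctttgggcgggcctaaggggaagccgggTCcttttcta
Atp5c1: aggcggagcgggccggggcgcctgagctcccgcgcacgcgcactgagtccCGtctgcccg
Atp5d: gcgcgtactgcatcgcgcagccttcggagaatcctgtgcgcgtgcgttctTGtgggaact
Cox5a: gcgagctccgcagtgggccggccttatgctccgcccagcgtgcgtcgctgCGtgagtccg

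The subunit genes were lower in mOPCs than in mESCs almost throughout. Their summed window tags fell from 11049 ± 334 CPM (SD, n = 3) in mESCs to 3415 ± 188 CPM (SD, n = 3) in mOPCs, a ratio of 3.24, and the 3 mESC sums (10759.9, 11415 and 10973 CPM) lay far above the 3 mOPC sums (3449, 3583 and 3212 CPM). Of the 85 genes, 82 passed the filter on low counts. Of these, 77 were called lower in mOPCs and 1, Cox6a2, higher by edgeR's quasi-likelihood test with Benjamini-Hochberg adjustment over all 16405 genes tested, while 4 did not pass. Over all genes tested, 48.8% were called lower and 42.3% higher. The filter asks for enough tags in 3 libraries, so a gene can pass through 1 cell type alone. Cox6a2 passed through the mOPC libraries alone, and Cox6b2, Cox4i2, Cox7b2 and Ndufa13 through the mESC libraries alone. For these genes passing the filter leaned on the cell type where they are high, so their calls are given as description only. The median log2 fold change, mOPC over mESC, was -1.53 over the 82 genes, -0.17 over all genes tested and -0.26 over protein-coding genes. A decrease below -1 on this scale was seen for 60 of the 82 genes (73.2%) and for 36.1% of all genes tested. In bulk RNA, fewer cells of a type and less RNA per cell cannot be told apart, and CPM is a share of each library rather than an amount per cell.

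**Figure D1:**
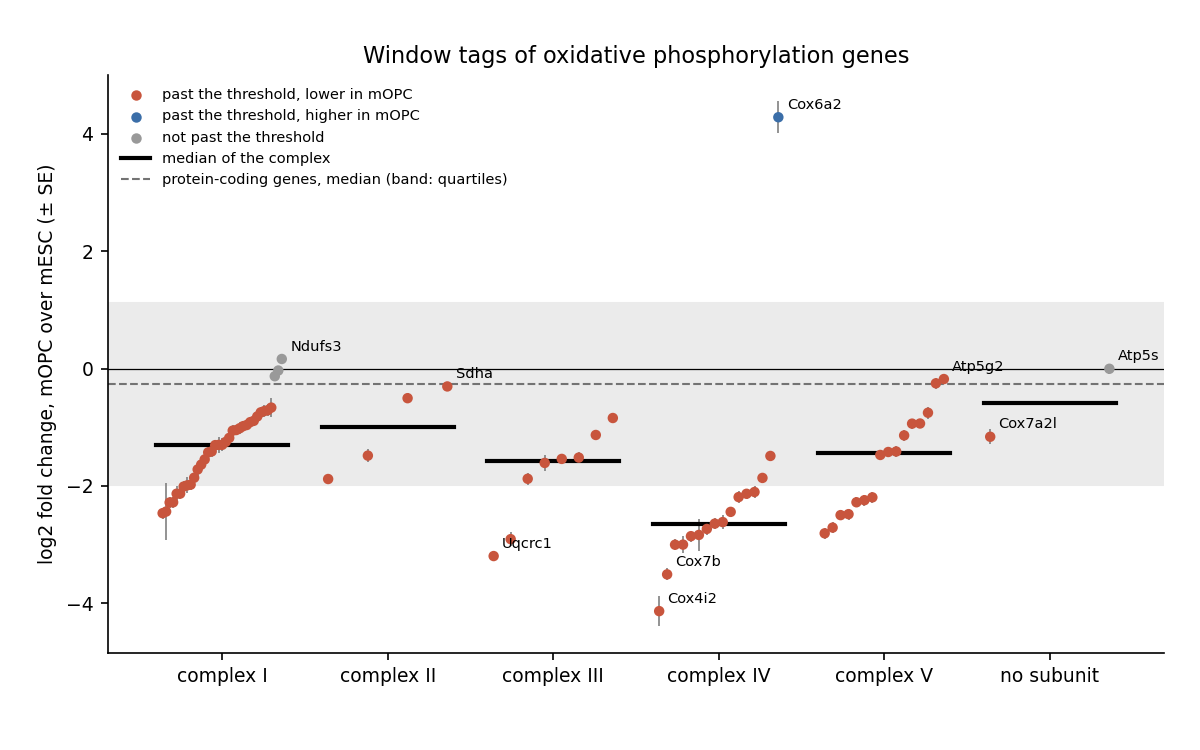
Log2 fold change (mOPC over mESC, ± SE from the fit) of each tested gene, ordered within its complex, with black bars at the median of each complex, the dashed line at the median of protein-coding genes (-0.26) and the grey band at their quartiles. Points sit lowest in complex IV (median -2.64) and Cox6a2 is the single point far above 0; Cox6b2, with 1 tag in all mOPC libraries, is left out of the points but counted in the median.

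The complexes differed in how far they fell. Each sum covers only genes of the name rule, so that cytochrome c1 (Cyc1) and the acyl carrier subunit Ndufab1 are in none of them. Complex IV, the terminal oxidase, went from 3882 ± 254 to 717 ± 69.0 CPM (SD, n = 3 each), a ratio of 5.42, and took 35.1% of the tags of the 85 genes in mESCs and 20.99% in mOPCs. Complex III went from 677 ± 30.8 to 169.9 ± 8.67 CPM and complex V from 3107 ± 82.3 to 902 ± 48.2 CPM, ratios of 3.99 and 3.45. Complex I went from 2940 ± 91.3 to 1319 ± 74.1 CPM, a ratio of 2.23, and its share of the tags rose from 26.6 to 38.6%. Complex II showed the smallest ratio, 1.55, from 363 ± 26.5 to 234 ± 6.96 CPM. In every complex the 3 mESC sums lay above the 3 mOPC sums.

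The median log2 fold change of the tested genes followed the same order as the sums. It was -2.64 for complex IV (17 genes, 16 lower and 1 higher), -1.57 for complex III (8 of 8 lower), -1.45 for complex V (16 of 16 lower), -1.30 for complex I (32 of 35 lower) and -0.99 for complex II (4 of 4 lower). Computed for each of the 9 pairings of an mESC with an mOPC library, the median ran from -2.66 to -2.46 in complex IV and from -1.35 to -1.20 in complex I, without overlap. The ranges of complexes III (-1.79 to -1.41) and V (-1.63 to -1.40) overlapped, so that their order cannot be set, and complex II (-1.29 to -0.72) overlapped complex I. The pairings share libraries and the genes of a complex are not replicates, so these ranges describe the libraries and no test was made on them.

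Among the members of complex I, core subunits of the peripheral arm were among the exceptions. Ndufs1, the large iron-sulfur subunit, gave 87.4, 106 and 99.5 CPM in mESCs and 95.5, 96.4 and 94.8 CPM in mOPCs. The libraries of the cell types overlapped, with a log2 fold change of -0.13 ± 0.08 (SE, edgeR adjusted p = 0.132). Ndufs3, its neighbour in the arm, stood at 37.2, 39.7 and 37.2 CPM in mESCs and 43.9, 46.8 and 46.2 CPM in mOPCs. Its mOPC libraries were all higher, but the log2 fold change of 0.16 ± 0.09 missed the threshold (edgeR adjusted p = 0.0771) and passed it with library totals in place of TMM factors (0.27, adjusted p = 0.00305). It also passed, as higher in mOPCs, without mESC replicate 1 (0.23, edgeR adjusted p = 0.0174) and without mOPC replicate 1 (0.27, adjusted p = 0.00605).

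Genes called lower in complex I were core and accessory alike. The core subunits Ndufs7, Ndufs8, Ndufv1 and Ndufv2 had log2 fold changes of -0.89, -0.72, -0.98 and -1.05, and accessory subunits reached -2.47 in Ndufb7, -2.28 in Ndufb5 and -2.28 in Ndufb6. Ndufa12, an accessory subunit with the highest level in complex I, gave 483, 523 and 477 CPM in mESCs and 156, 156 and 127 CPM in mOPCs. The cell types did not overlap, and the log2 fold change was -1.86 ± 0.09 (edgeR adjusted p = 2.32e-36). Ndufb7 gave 115, 107 and 109.6 CPM in mESCs and 23.4, 23.4 and 18.1 CPM in mOPCs.

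Ndufa13, a subunit on chromosome 8 (69894180 to 69902558, minus strand) and also known as GRIM-19, was nearly absent from its window, with 0.660, 0.420 and 0.543 CPM in mESCs and 0, 0.139 and 0.147 CPM in mOPCs. Its tags lay elsewhere: the tallest position of the gene body was 69901650, 908 bp downstream of the only annotated 5' end and therefore outside the 500 bp window. Within 100 bp of that position the mESC libraries held 122, 119 and 116 CPM and the mOPC libraries 61.9, 63.2 and 60.1 CPM, again without overlap. With all tags of the gene body counted, the log2 fold change was -1.01 ± 0.08 (edgeR adjusted p = 3.30e-19), against -2.44 from the few window tags. The start was found after the values of the genes had been seen. The window sums of complex I leave these tags out. In only 2 other genes of the 85 was the tallest position outside the windows, Cox8b, with almost no tags, and an Atp5o gene of 242585 bp that spans other genes.

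Succinate dehydrogenase was split in its response. Sdha, the flavoprotein, gave 107, 102 and 107 CPM in mESCs and 97.3, 88.6 and 89.6 CPM in mOPCs. Sdhb, the iron-sulfur subunit, gave 155, 129.6 and 126 CPM in mESCs and 109, 99.1 and 104 CPM in mOPCs. The catalytic pair thus differed little between cell types, with no overlap and log2 fold changes of -0.30 ± 0.08 (edgeR adjusted p = 0.000421) and -0.50 ± 0.08 (adjusted p = 4.99e-08). The membrane anchors fell further: Sdhc had a log2 fold change of -1.48 ± 0.11 and Sdhd, with 84.0, 79.97 and 82.4 CPM in mESCs and 21.6, 24.1 and 25.7 CPM in mOPCs, of -1.88 ± 0.09.

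In complex III, the core protein Uqcrc1 had the highest level and the largest fall. It gave 373, 326 and 307 CPM in mESCs and 39.5, 38.1 and 40.1 CPM in mOPCs, with a log2 fold change of -3.20 ± 0.09 (edgeR adjusted p = 1.05e-53), or 9.17-fold lower. Its partner core protein Uqcrc2 fell by 1.54 and the Rieske iron-sulfur protein Uqcrfs1 by 1.13 on the log2 scale. The smallest change of the complex was in Uqcrq, at -0.84 ± 0.09.

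Complex V showed a wide range among its subunits. Atp5b, the catalytic beta subunit of the F1 part, gave 636, 676 and 668 CPM in mESCs and 113, 114 and 98.6 CPM in mOPCs, with a log2 fold change of -2.71 ± 0.09 (edgeR adjusted p = 3.88e-48). Atp5a1, the alpha subunit that alternates with beta, fell by 2.20, whereas the central stalk subunits Atp5c1 (gamma), Atp5d (delta) and Atp5e (epsilon) had smaller log2 fold changes of -1.47, -0.25 and -0.75. Atp5d was called lower (edgeR adjusted p = 0.00864), but its libraries overlapped, at 40.6, 36.5 and 37.8 CPM in mESCs and 34.9, 38.6 and 30.7 CPM in mOPCs. The call of Atp5d was lost without mESC replicate 1 (-0.11, edgeR adjusted p = 0.261), mOPC replicate 1 (-0.18, adjusted p = 0.0803) or mOPC replicate 3 (-0.18, adjusted p = 0.0731). The membrane subunit Atp5l fell most, by 2.81 on the log2 scale.

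The paralogues of complex IV held both the largest falls and the only rise. Cox6b2, the testis paralogue of the intermembrane subunit 6b (chromosome 7, 4751792 to 4753094, minus strand), gave 88.8, 74.5 and 72.5 CPM in mESCs, above Cox6b1, its general counterpart, at 56.8, 62.1 and 58.7 CPM. In mOPCs it had 1 tag in 1 library and none in the others. Pooled over libraries this was 5941 tags against 1, a ratio of 7465 with an exact 95% counting interval from 1339 to 294904, which covers counting error only. Cox6b1 fell by 1.49 on the log2 scale, to 24.3, 21.1 and 22.5 CPM. The share of Cox6b2 in the pair went from 56.9 ± 3.55% (SD, n = 3) to 0.0625 ± 0.108%.

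Cox6a2, the heart and skeletal muscle paralogue of subunit 6a (chromosome 7, 128205435 to 128206387, minus strand), rose. It gave 0.211, 0.240 and 0.271 CPM in mESCs and 4.15, 5.27 and 5.30 CPM in mOPCs, with no overlap and a log2 fold change of 4.29 ± 0.27 (edgeR adjusted p = 2.30e-27). The mESC values rest on 8, 4 and 5 tags, and the gene passed the filter on low counts through its mOPC libraries alone. Cox6a1, the general paralogue, had the highest mean level of the complex over the 6 libraries, at 893, 1110.2 and 1063 CPM in mESCs and 186, 177 and 134 CPM in mOPCs (log2 fold change -2.73 ± 0.10, edgeR adjusted p = 2.19e-36). Even so, Cox6a2 took only 2.96 ± 0.819% (SD, n = 3) of the pair in mOPCs, against 0.0236 ± 0.00195% in mESCs. In Cox6a2 a second start 124 bp downstream of the dominant position held 38.3% of the window tags in mESCs, on those few tags, and 13.03% in mOPCs.

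Subunit 4 is the regulatory subunit through which ATP acts on the oxidase, and Cox4i2 is its lung and low-oxygen paralogue. Cox4i2 gave 5.25, 4.50 and 3.58 CPM in mESCs and 0.182, 0.277 and 0.318 CPM in mOPCs, a log2 fold change of -4.14 ± 0.26 (edgeR adjusted p = 5.95e-28). It passed the filter on low counts through its mESC libraries alone. Cox4i1, the general form, gave 258, 275 and 243 CPM in mESCs and 32.9, 37.9 and 33.2 CPM in mOPCs (-3.00 ± 0.09, adjusted p = 3.30e-52). Both forms fell, and Cox4i1 held 98.3% of the pair in mESCs and 99.3% in mOPCs.

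Subunit 7 showed the same broad fall. Cox7b, on the X chromosome, gave 98.6, 111 and 104.6 CPM in mESCs and 8.39, 10.9 and 10.1 CPM in mOPCs (log2 fold change -3.51 ± 0.10, edgeR adjusted p = 1.29e-53). Its testis paralogue Cox7b2 was low in both, at 2.54 ± 0.236 and 0.365 ± 0.0858 CPM (SD, n = 3 each). Cox7a1, the heart and muscle form of subunit 7a, fell from 13.98 ± 0.468 to 1.88 ± 0.208 CPM and Cox7a2, the general form, from 159 ± 0.918 to 46.9 ± 2.21 CPM. Cox7a2l gave 16.8, 25.5 and 20.9 CPM in mESCs and 9.58, 12.1 and 8.38 CPM in mOPCs, a smaller fall of 1.16 on the log2 scale.

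Subunit 8 was almost wholly Cox8a, which gave 735, 789 and 848 CPM in mESCs and 151, 152 and 107 CPM in mOPCs (log2 fold change -2.64 ± 0.10). Cox8c, the testis form, had 23 tags in mESCs (0.290, 0.360 and 0.326 CPM) and none in mOPCs, where 3 tags over the pooled libraries set it at least 9.63-fold lower. Cox8b, the muscle form, had 1 tag in all 6 libraries. Ndufa4 gave 357, 398 and 385 CPM in mESCs and 74.6, 81.5 and 69.3 CPM in mOPCs, and Ndufa4l2, a gene induced in low oxygen, 26.3, 24.7 and 24.9 CPM against 4.33, 4.20 and 4.67 CPM. The share of Ndufa4l2 in that pair, 6.26 ± 0.536% in mESCs and 5.57 ± 0.709% in mOPCs (SD, n = 3 each), overlapped between the cell types.

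The 3 c-ring genes encode the same mature protein of ATP synthase, and here the balance between them changed. Atp5g1 gave 87.2, 92.5 and 86.1 CPM in mESCs and 19.0, 18.7 and 13.9 CPM in mOPCs, a log2 fold change of -2.48 ± 0.10 (edgeR adjusted p = 7.51e-43). Atp5g2 gave 65.9, 64.1 and 66.4 CPM in mESCs and 59.3, 67.2 and 59.8 CPM in mOPCs, overlapping between cell types (-0.18 ± 0.09, adjusted p = 0.0439). Atp5g3 was intermediate, with a log2 fold change of -0.94 ± 0.08. Atp5g1 therefore went from 34.3 ± 1.01 to 12.5 ± 1.85% of the c-ring tags (SD, n = 3 each) and Atp5g2 from 25.4 ± 1.10 to 45.1 ± 0.676%, both without overlap. The decrease of Atp5g2 was not past the threshold with library totals in place of TMM factors (-0.08, edgeR adjusted p = 0.368), nor without replicates 1 or 3 of either cell type (-0.19 to -0.07, adjusted p from 0.0689 to 0.468).

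Atp5s, kept apart from the subunits, gave 59.6, 59.4 and 58.8 CPM in mESCs and 56.4, 64.3 and 69.1 CPM in mOPCs. Its libraries overlapped and its log2 fold change was within 1 SE of 0 (edgeR adjusted p = 0.970).

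**Figure D2:**
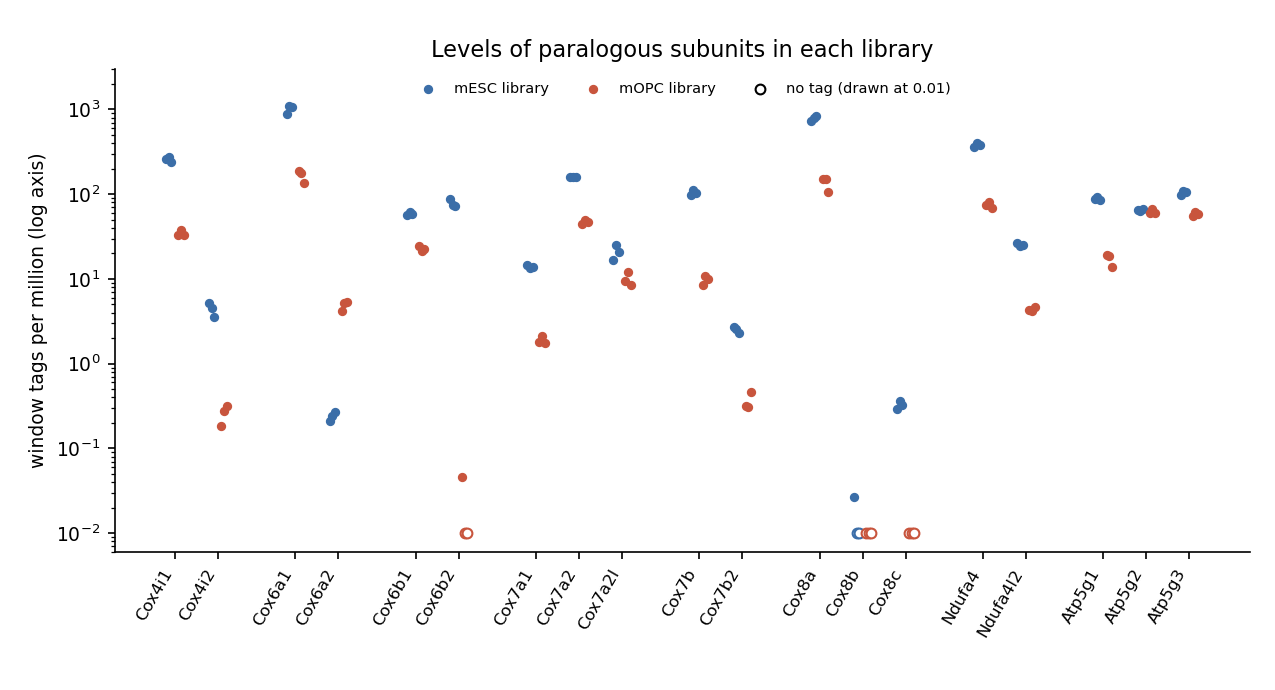
Window tags in CPM (log axis) of the paralogous subunits in each of the 3 mESC (blue) and 3 mOPC (red) libraries, 1 point a library, with open circles at 0.01 for libraries without a tag. Cox6b2 drops from 72.5 CPM or more to at most 1 tag, Cox6a2 is the only gene with red above blue, and Atp5g2 is the only one above 1 CPM whose points overlap.

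The size of the fall stood beside gene length. Among protein-coding genes outside the list, the median log2 fold change was -1.49 for the 749 genes of up to 3000 bp, -0.54 from 3000 to 10000 bp, -0.42 from 10000 to 30000 bp, -0.09 from 30000 to 100000 bp and 0.61 above 100000 bp. The oxidative phosphorylation genes are short, with a median of 7370 bp over those tested against 24698.5 bp for protein-coding genes. Within the same classes their medians were -1.98 (15 genes, 14 lower), -1.61 (41 genes, 41 lower) and -1.44 (22 genes, 19 lower), below the medians of the other genes of like length, of which 65.8%, 56.0% and 53.5% were called lower. The remaining classes held 2 genes each. Complex IV had the shortest genes, with a median of 3340 bp, and complex II the longest, with 20715 bp, so that complex and length move together. The part of length in the difference between complexes was not tested.

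**Figure D3:**
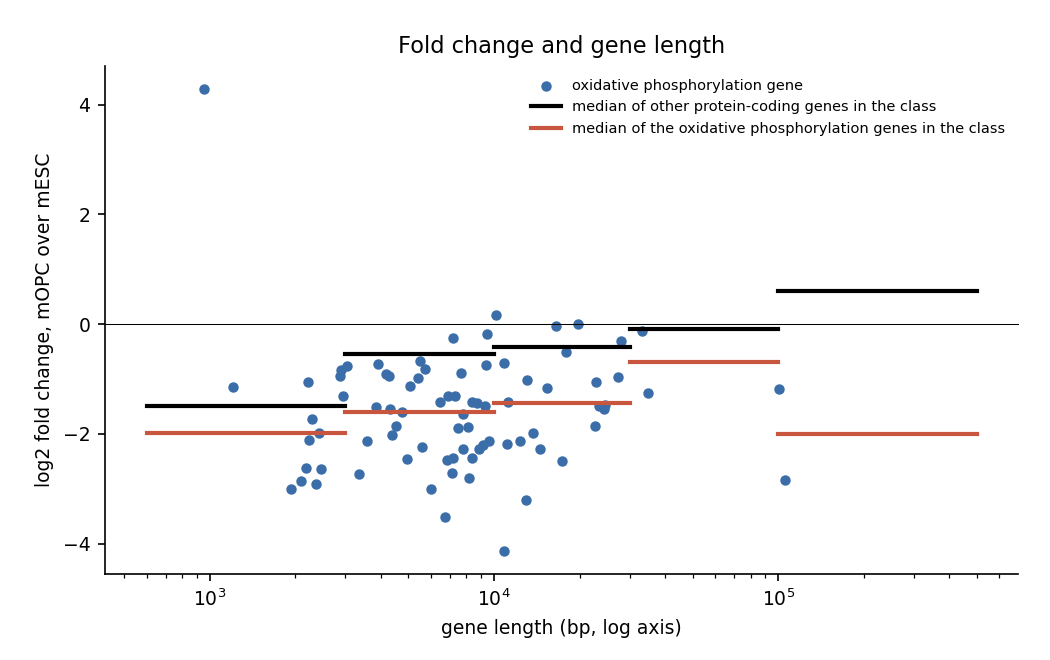
Log2 fold change (mOPC over mESC) of each tested oxidative phosphorylation gene (blue points) against gene length in bp (log axis), with medians of these genes (red) and of other protein-coding genes (black) in 5 classes of length; Cox6b2 is not drawn. In the class from 3000 to 10000 bp the red bar lies at -1.61 and the black bar at -0.54.

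Other genes of the pathway gave a mixed picture. Of 51 assembly factors tested, 29 were lower in mOPCs, 14 higher and 8 not called, with a median log2 fold change of -0.42. The largest changes were in the complex I assembly factors Ndufaf4, from 309 to 27 CPM in the mean (log2 fold change -3.63 ± 0.09), and Ndufaf2 (-3.31 ± 0.10), and in Coa5, a complex IV assembly factor (-2.62 ± 0.09). The 5 genes Cyc1, Ndufab1, Cycs, Cyct and Hccs, which the name rule leaves out, were all lower. Cytochrome c1 (Cyc1) fell by 2.01 and the acyl carrier subunit Ndufab1 by 2.12. Cyct, the testis form of cytochrome c, went from 1273 pooled tags to 3, a ratio of 533 with an exact 95% counting interval from 182 to 2589. Of 13 citric acid cycle enzymes tested, 12 were lower, none higher and 1 not called, with a median of -1.03, led by Idh3a (-2.45 ± 0.09), Mdh2 (-1.88 ± 0.09) and Sucla2 (-1.77 ± 0.09). These counts stand beside the 48.8% lower and 42.3% higher over all genes, by the same edgeR test.

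Transcription factors and coactivators known to act on respiratory genes went both ways, with 9 of 16 lower, 5 higher and 2 not called, beside 48.8% lower and 42.3% higher over all genes. The 5 higher in mOPCs, listed in full after their values were seen, were Ppargc1a and Ppargc1b, the PGC-1 coactivators (log2 fold changes 3.37 ± 0.39 and 0.96 ± 0.10), Esrra, an estrogen-related receptor (1.38 ± 0.12), Gabpb1, a partner subunit of Gabpa (0.65 ± 0.09), and Nrf1, nuclear respiratory factor 1 (0.24 ± 0.09). Gabpa, the DNA-binding subunit of NRF-2, gave 1114, 1168 and 1240 CPM in mESCs and 87.7, 86.9 and 83.7 CPM in mOPCs (log2 fold change -3.87 ± 0.10, edgeR adjusted p = 4.13e-58). Sp1 fell by 3.67 and Esrrb, an estrogen-related receptor that is also part of the mESC marker list, by 9.53 on the log2 scale. Esrrg had 18 tags in mESCs and none in mOPCs, at least 7.54-fold lower against 3 pooled tags.

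Gabpa shares a promoter region with a subunit gene: its start lies 67 bp upstream of that of Atp5j, the ATP synthase coupling factor, on the other strand. Atp5j gave 301, 326 and 327 CPM in mESCs and 68.0, 74.9 and 68.0 CPM in mOPCs (log2 fold change -2.28 ± 0.09), so that both genes of the pair fell, Gabpa by more. The pair was singled out after its values were seen. Such divergent starts within 1000 bp upstream were found for 30 of the 77 subunit genes with enough tags for start sites to be described (39.0%) and for 24.2% of all 9758 protein-coding genes so described. Of the 30 partner genes, 14 (46.7%) were called lower, 12 (40%) higher and 3 neither, and 1 was not tested, shares near the 48.8% and 42.3% of all genes tested. Phf14, opposite Ndufa4, went from 89.5 to 225 CPM in the mean while Ndufa4 fell from 380.0 to 75.1 CPM, whereas Eef1b2, opposite Ndufs1, went from 471 to 69.5 CPM while Ndufs1 did not pass the test.

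The start sites of the subunit genes were narrower than those of other genes in both cell types. Promoter width was taken as the distance that holds the middle of the tags, from the 10% to the 90% quantile, within 100 bp of the dominant position, for genes with at least 30 tags in every library. The 77 subunit genes had median widths of 30.3 ± 0.577 bp (mESCs) and 29.3 ± 0.577 bp (mOPCs) (SD over 3 libraries each), against 46.0 and 45.0 bp over all 9758 genes. Ribosomal protein genes, another set of highly transcribed housekeeping genes, had medians of 36.2 ± 1.04 and 33.8 ± 1.61 bp. Promoters of at most 10 bp were seen in 7 of 77 subunit genes in mESCs (9.09%) and 4 in mOPCs (5.19%), against 3.96 and 4.17% of all genes. The genes left out for few tags were Cox4i2, Cox7b2, Cox6b2, Cox6a2, Cox8b, Cox8c, Ndufa13 and the long Atp5o gene.

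Cox6a1 was among the narrowest, with a width of 3 bp in all 6 libraries, and 57.9% of its tags in mESCs and 52.1% in mOPCs fell on the dominant position shown above. Cox7a2l measured 2 bp in every mESC library and 4, 2 and 14 bp in mOPCs, with 83.6 and 77.8% of tags at the dominant position, and Ndufa12 8, 8 and 7 bp in mESCs and 10, 8 and 8 bp in mOPCs. At the other end, Cox5a, a subunit of the oxidase that faces the matrix, measured 71, 74 and 74 bp in mESCs and 69, 69 and 69 bp in mOPCs. Sharp and broad start regions therefore occurred within the same complex. The complexes had medians of 18.8 bp (II), 24.0 bp (V), 33.0 bp (I), 33.8 bp (III) and 34.3 bp (IV) in mESCs. In mOPCs the order differed, at 18.2 bp (II), 25.8 bp (I), 30.7 bp (V), 32.7 bp (IV) and 36.7 bp (III).

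Widths differed between cell types in some of the subunit genes. In 38 of the 77 genes (49.4%) the 3 mESC widths did not overlap the 3 mOPC widths, 19 wider and 19 narrower in mOPCs, against 55.6% of all genes measured. With 30 tags drawn per gene and library, these counts were 7 wider and 4 narrower, against 10.5 and 11.5% of all genes. The difference between the subunit genes and all genes was not tested. The exact two-sided permutation test of 3 against 3 libraries cannot give a p below 0.1, so no single change can pass a threshold of 0.05. Ndufb7 narrowed from 68, 74 and 75 bp in mESCs to 40, 47 and 41 bp in mOPCs. Atp5d widened from 72, 54 and 51 bp to 88, 80 and 81 bp and Atp5c1 from 61 bp in every mESC library to 84 bp in every mOPC library. Of these, the difference in Ndufb7 stayed without overlap in the drawn tags, and those in Atp5d and Atp5c1 did not, although their mean differences of 19.3 and 19.7 bp kept their direction.

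**Figure D4:**
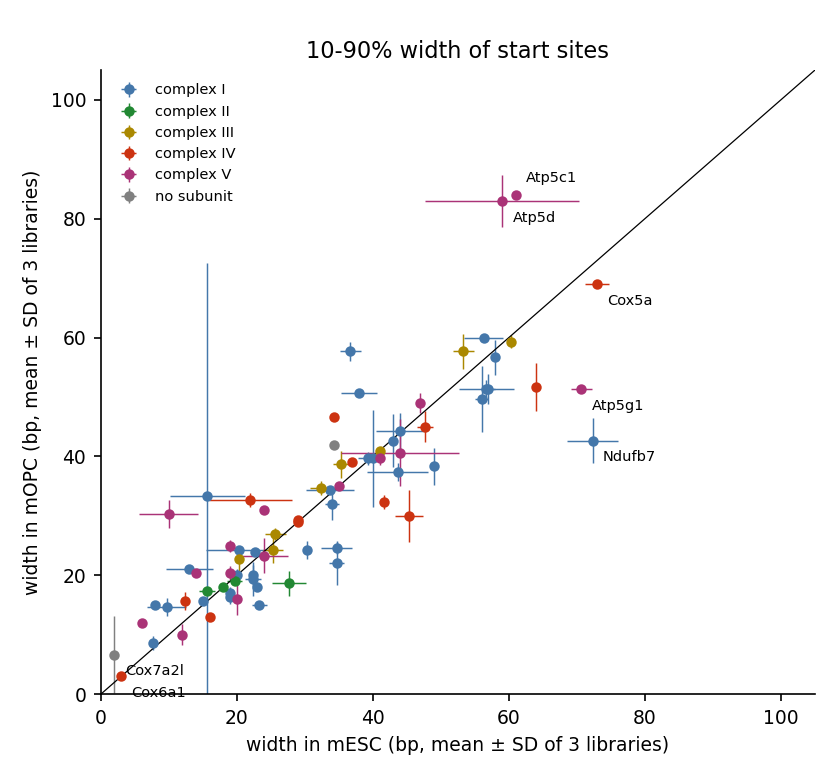
Width of the start region in mESCs (x axis, bp) and mOPCs (y axis, bp), 1 point for each of the 77 genes measured, as the mean ± SD of 3 libraries and coloured by complex, with the diagonal marking equal widths. Most points follow the diagonal, Ndufb7 and Atp5g1 lie below it, and Atp5d and Atp5c1 above it.

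Start positions moved within some of the regions. The dominant position was the same in both cell types for 55 of 77 subunit genes (71.4%) and for 62.4% of all genes. The median position of the tags did not overlap between cell types in 39 genes, 27 upstream and 12 downstream in mOPCs, a share of 50.6% against 49.2% of all genes, where 2222 moved upstream and 2582 downstream. In complex I, 16 of 34 genes moved upstream and 2 downstream. Atp5g1 had its median 4 or 5 bp upstream of the dominant position in the mESC libraries and 43, 30 and 30 bp upstream in the mOPC libraries, and the dominant position itself held 14.5% of tags in mESCs and 2.3% in mOPCs. Ndufv3, a small complex I subunit, moved from 0 in every mESC library to 30 bp upstream in every mOPC library.

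Cox5a moved the other way, from 25, 24 and 26 bp to 48, 49 and 48 bp downstream of the dominant position shown above, and its most used position in mOPCs lay 68 bp downstream of that in mESCs. In Ndufb10, named here after its values were seen, the dominant position held 17.2% of tags in mESCs and 0.1% in mOPCs, where a position 17 bp upstream was used most. The median moved from 0 in all mESC libraries to 17, 16 and 15 bp upstream in mOPCs, and the width from 35, 38 and 37 bp to 56, 59 and 58 bp. Cox6a1 kept its median at 0 in all 6 libraries.

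**Figure D5:**
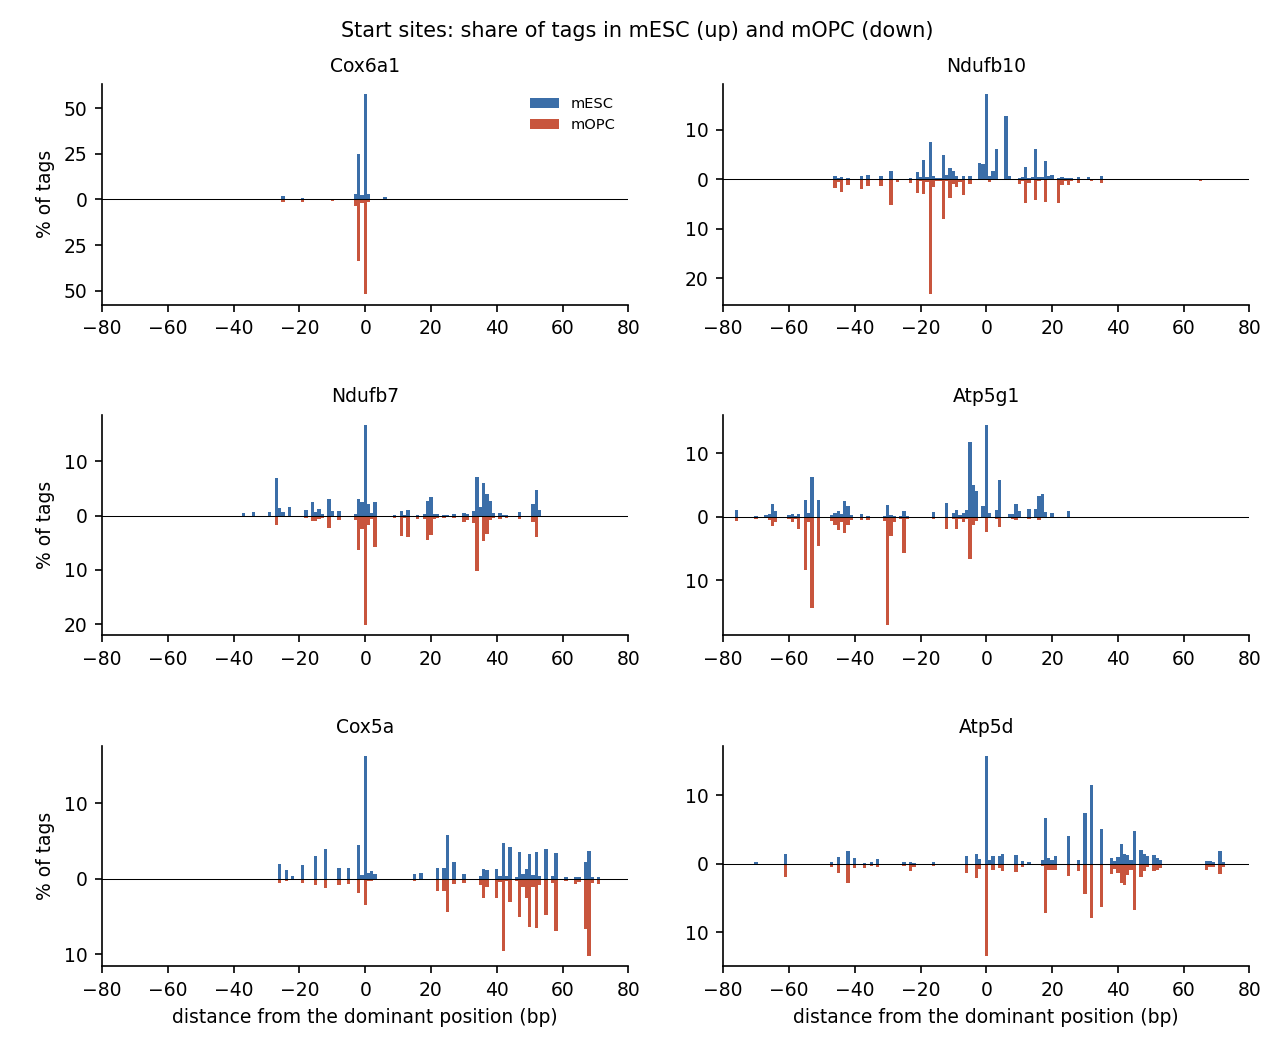
Share of tags (%) at each position within 80 bp of the dominant position for 6 genes, with mESCs drawn upwards (blue, mean of 3 libraries) and mOPCs downwards (red). Cox6a1 keeps a narrow peak at 0 in both, whereas Ndufb10 loses the position that held 17.2% in mESCs and Atp5g1 shifts upstream.

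The letters around the starts were compared in the 64 measured subunit genes whose promoter was matched in the RefSeq table, from 250 bases before to 50 bases after the RefSeq start, and in 7925 protein-coding genes matched in the same way. Motifs were searched on both strands as exact letters, and a match describes the letters only. GCGCANGCG, the motif of nuclear respiratory factor NRF1, was found in 31.2% of the subunit genes and 17.5% of all genes, and AAGATGG (YY1) in 17.2 and 8.52%. AAGGTCA, the core motif of the estrogen-related receptors, was found in 12.5 and 2.46%. CCGGAAG (ETS factors such as GABPA) and CCAAT were found in 25 and 42.2% of subunit genes, close to 22.4 and 40.7% of all genes. GGGCGG (SP1) was found in 37.5% of subunit genes and 71.4% of all genes. TATAAA from 40 to 20 bases before the dominant position was found in 0 of 52 subunit genes and 1.59% of all genes.

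The AAGGTCA matches in 8 genes are shown because this motif had the largest ratio between subunit genes and all genes. Capitals mark the motif, written on the strand that holds it, in build GRCm38.p6. They lie in Atp5e (chr2:174464060-174464088), Atp5g3 (chr2:73911361-73911389), Atp5k (chr5:108434359-108434387), Atp5l (chr9:44920738-44920766), Ndufb2 (chr6:39592373-39592401), Ndufb4 (chr16:37654406-37654434), Ndufs5 (chr4:123718397-123718425) and Sdhd (chr9:50603800-50603824). Along the gene's strand the motif begins downstream of the dominant start in Atp5e (13 bp), Atp5k (19 bp) and Sdhd (4 bp). In the others it begins upstream, at -5 bp in Ndufb4, -42 in Atp5l, -77 in Atp5g3, -218 in Ndufb2 and -227 in Ndufs5.
Atp5e: ccggcagcaggAAGGTCAggcctgagtag
Atp5g3: ggaagacgctcAAGGTCActttgtaacaa
Atp5k: cttccggcgcgAAGGTCAcggacaaaatg
Atp5l: tccccatttccAAGGTCAggctgcccctc
Ndufb2: ggagcagcagtAAGGTCAgccaagagcac
Ndufb4: tcctgagcctgAAGGTCAgactcgagagg
Ndufs5: gctacttgagcAAGGTCAcactcgagaaa
Sdhd: agggctcAAGGTCActctacaaccc

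The level changes were set side by side for genes with and without a motif. The 8 genes with AAGGTCA had a median log2 fold change of -1.04 and the 56 without it -1.53, and for GCGCANGCG the medians were -1.36 (20 genes) and -1.68 (44 genes). Genes with CCGGAAG had a median of -1.70 (16 genes) and those without it -1.43 (48 genes). For GGGCGG the medians were -1.30 (24 genes) and -1.59 (40 genes). They were -1.42 (11 genes) and -1.52 (53 genes) for AAGATGG, and -1.47 (27 genes) and -1.52 (37 genes) for CCAAT. These are descriptions of small groups, and no test was made.

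At the start itself, the dominant deposited position held C or T and the base after it A or G in 38 of 49 subunit genes (77.6%) and in 88.9% of all genes. Across genes the deposited position lay most often 1 bp before an annotated 5' end, in 19 of 77 subunit genes and 18.8% of all genes, against 3.05% exactly at it, so that the base after it was read as the first transcribed base. With the deposited position itself as the first base, which was the reading set at the outset, C or T before A or G was found in 3 of 49 subunit genes (6.12%). The letters TCT at this place, known from ribosomal protein genes, were found in 0 of 49 subunit genes, 0.867% of all genes and 23.5% of ribosomal protein genes. In Cox7a2l, shown above, the dominant position and the next base are TC, followed by a run of C and T.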

How the data were processed

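CAGE was performed on nuclear RNA of R08 mESCs and Oli-neu mOPCs (3 libraries each, grouped by the labels). The authors deposited raw tag counts per 1-bp start position on mm10, from uniquely aligned reads. Per the labels CASAVA 1.8 and BWA 0.5.9 were used, whereas the study's methods name bowtie. Unique alignment drops tags that fit a second place, such as a processed pseudogene. Here, tags within 500 bp of GENCODE vM21 5' ends were summed per gene and strand, and tested with edgeR 4.0.16 in R 4.3.3 (filterByExpr, TMM, robust quasi-likelihood, Benjamini-Hochberg over all genes, threshold 0.05). The same fit was also run on simulated counts. These held a far smaller share of changed genes than the data, so they cannot vouch for the test in this setting. Promoter sequences came from RefSeq (GRCm38.p6), where 69 of 85 genes were matched. A genome was not used here, so copies were searched among annotated transcripts only. The first 21 bases occurred in another annotated gene for 0 of 64 subunit genes and 2.12% of 7925 protein-coding genes. Intervals and floors of 3 tags cover counting error only. Replicate numbers did not pair the libraries. Members and lists were chosen with earlier results of these data known. Named by rule were all paralogues, the largest changes, the highest gene per complex, the widest and narrowest promoters, the largest shifts, second promoters and genes that are not subunits. Genes outside these rules, such as Ndufs1, Sdha, Atp5a1 and Atp5l and the partners Phf14 and Eef1b2, were named with their values known. Classes of gene length and the base read as the first were chosen after seeing the data. DESeq2 1.42.0 and other windows, filters and scalings served as alternatives. Values of 1 gene of the list are not reported here; it is counted in the sums and totals.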

Additional observations from a re-analysis of the deposited data

Results flagged for a closer look

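Tags on the mitochondrial genome, which encodes further subunits of complexes I, III, IV and V, were not used in any comparison of the nuclear genes. Their share of all tags was 0.465% (SD 0.00244) over the 3 mESC libraries and 0.653% (SD 0.0138) over the 3 mOPC libraries. They are listed because no comparison used them. The libraries were made from nuclear RNA and these tags were not assigned to genes, so their share is no measure of mitochondrially encoded subunits. Groups of 3 libraries were not searched for outlying samples.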

How the results depend on the processing

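The number of genes called lower, 77, ran from 74 to 78 over the alternatives, and the fall of the median kept its direction in all of them. Genes called higher numbered 2 with library totals in place of TMM factors, 3 without a filter on low counts and 3 over whole gene bodies (Ndufs3 among them each time), and 1 or 2 with 1 library left out, 2 without mESC replicate 1 or mOPC replicate 1. The median log2 fold change was -1.43 with library totals, -1.45 without the filter and -1.38 over gene bodies, and ran from -1.60 to -1.46 with 1 library left out. Library totals moved the median of all genes from -0.17 to -0.07. With DESeq2 the counts were 78 lower and 1 higher. With the replicate number as a block, 77 were lower and 1 higher, the median was -1.53 and no call changed; same-numbered libraries correlated at -0.002, 0.061 and 0.009. Atp5s, near 0, changed sign with library totals (0.0967), no filter (0.0862), the 100 bp window (0.000653) and gene bodies (0.0799), and with 1 library left out ran from -0.0910 to 0.150, never past the threshold. Calls for Atp5d and Atp5g2 were lost in 5 and 8 settings and that of Ndufb11, whose dominant start lies 335 bp from its nearest annotated 5' end, in the 100 bp window (-0.17, edgeR adjusted p = 0.508). With mOPC replicate 1 left out, 1 citric acid cycle enzyme was called higher. Summed levels of the genes were 13085 and 4284 CPM relative to window tags of all genes, 11454 CPM in mESCs with TMM factors, and 10867 to 11194 (mESCs) and 3330 to 3516 CPM (mOPCs) with 1 library left out.

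Median widths in mESCs and mOPCs were 31.0 and 31.0 bp within 250 bp (all genes 49.7 and 49.3), 13 and 14 bp from the 25% to the 75% quantile (all genes 23 and 22), and 31.3 bp in mOPCs with 30 tags drawn (all genes 45.0 in mESCs). With at least 100 tags they were 32.0 bp in mESCs (all genes 44.7 and 44.3). All genes had 39.0 and 39.0 bp within 50 bp and 45.7 bp in mESCs with a dominant position for each cell type. The subunit genes stayed narrower than all genes in every setting. Drawing 30 tags left 7 genes wider and 4 narrower in mOPCs, against 10.5 and 11.5% of all genes. Reading the dominant position itself as the first base, C or T before A or G was found in 6.12% of subunit genes, against 77.6% as reported. The limits are those of depth and annotation: genes below 30 tags have no width, tags far from annotated 5' ends are missed, and 1 line per cell type carries each comparison. The causes of these changes were not tested.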
